A study of Rattus norvegicus with 4 samples.

Results

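The mitochondrial ribosomal protein genes encode the nuclear-made proteins of the ribosome inside mitochondria. They were taken as every gene whose probe accession maps to a rat RefSeq symbol beginning with Mrpl (large subunit) or Mrps (small subunit) and a number. This gave 68 genes on the array, 42 with a large subunit and 26 with a small subunit symbol, read by 85 probes. Counts for a subunit below go by symbol. A value on every array was available for 67 of them, among 16526 named genes in all. The exception, Mrpl32, whose protein belongs to the large subunit, had its only spot left out as an outlier on replicate 2. Its processed signal was 1170, 191 and 502 intensity units on replicates 1, 3 and 4, and it was detected on each of those arrays.

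The RNA came from NR8383, a rat macrophage line started from lung lavage that is used as a model of the alveolar macrophage. The cells were labelled with 20 passages and had been incubated for 4 h with 17 µg/mL of ZnFe2O4, a zinc iron oxide particle coded NRCWE021. All 4 arrays, each with 1 biological replicate, belong to this exposed group. Control arrays were not analysed here, so the values describe exposed cells and no gene is said to change with exposure. NR8383 is 1 established line, and its cells grow partly attached and partly floating. Of 14 measured macrophage markers, 11 were detected on all 4 arrays, and Adgre1, Marco and Cd163 were not detected on replicate 1 or replicate 4. On these 2 arrays together, 0 of 7 epithelial, 2 of 6 T and NK cell and 1 of 5 fibroblast markers were detected, against 46.0% of all named genes. On replicates 2 and 3 the counts were 6 and 5 epithelial, 6 and 5 T and NK cell and 5 and 5 fibroblast markers. Of all named genes 91.6% and 75.5% were detected there, so the markers of other cells are not read as present or absent. In RNA from a whole culture, fewer cells of a kind and less RNA per cell cannot be told apart.

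The mitochondrial ribosome translates the few messenger RNAs encoded by mitochondrial DNA, all of which specify subunits of the respiratory chain and ATP synthase. The small subunit binds the messenger and decodes it, and the large subunit forms the peptide bond and hands the chain to the inner membrane. All its proteins are encoded in the nucleus, translated in the cytosol and imported. Part of them have bacterial counterparts and part are found only in mitochondria. Transcription factors such as NRF1, GABP of the ETS family and YY1 are known regulators of nuclear genes for mitochondrial proteins.

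Short letter patterns of these factors were looked for in the promoters, since the members share a role and encode mitochondrial proteins. RefSeq stretches of 250 bases before to 50 bases after the annotated start (GRCr8 assembly) were at hand for 55 of the 68 members. The stretches below are the 120 bases before the start of 3 members named for their role. They lie at chr10:80092225-80092344 on the plus strand for Mrpl27, chr20:2842886-2843005 on the plus strand for Mrps18b and chr2:32474084-32474203 on the plus strand for Mrps27. Capitals mark the letters that match the NRF1 pattern in Mrps18b, where matches on both strands overlap, and the ETS pattern, on either strand, in Mrpl27 and Mrps27. Mrpl27 sits near the catalytic centre of the large subunit, by homology with bacterial L27.
Mrpl27: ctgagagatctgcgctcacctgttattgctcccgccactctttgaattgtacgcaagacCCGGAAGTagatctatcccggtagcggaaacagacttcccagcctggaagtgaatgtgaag
Mrps18b: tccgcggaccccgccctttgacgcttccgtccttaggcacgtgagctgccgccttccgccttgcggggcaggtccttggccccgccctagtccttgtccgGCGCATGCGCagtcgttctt
Mrps27: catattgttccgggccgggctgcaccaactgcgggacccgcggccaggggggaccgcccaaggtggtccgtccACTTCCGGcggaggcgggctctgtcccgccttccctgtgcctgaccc

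The NRF1 pattern GCGCANGCG stood on either strand in 11 of 55 member promoters (20.0%), against 8.05% of 19005 promoters of protein-coding genes. Besides Mrps18b these included Mrpl44, Mrpl45 and Mrpl30. The ETS pattern ACTTCCGG was in 8 member promoters (14.5%), against 4.99%, and the YY1 pattern AAGATGGCG in 8 (14.5%), against 2.29%. At least 1 of these patterns was in 25 member promoters (45.5%), against 13.9% of protein-coding promoters. Mrps27 held both the ETS and the YY1 pattern, and Mrps26 both the NRF1 and the ETS pattern. Matches of different patterns shared bases in 0 of the 55 member promoters. The SP pattern CCCGCCC was in 18 member promoters (32.7%), against 30.7%, and the TATA box pattern TATAAA in 7 (12.7%), against 13.1%. The median GC content was 56.3% in member promoters and 55.3% in protein-coding promoters. These are matches of letters, with no measurement of binding in these cells, and no test was run on the shares.

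**Figure D1:**
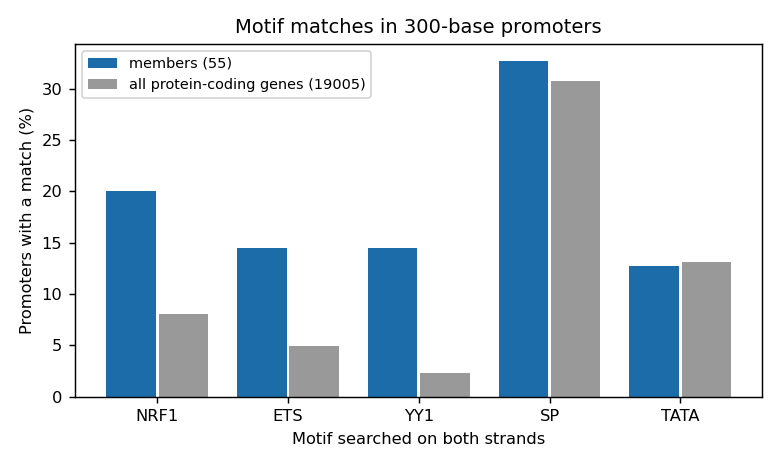
Share of promoters with each letter pattern, in percent on the vertical axis, for 55 member promoters (left bar of each pair) and 19005 promoters of protein-coding genes (right bar). The member bars are higher for NRF1 (20.0% against 8.05%), ETS (14.5% against 4.99%) and YY1 (14.5% against 2.29%), and the SP and TATA bars differ by less.

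A neighbouring gene on the other strand, with its start within 1000 bases, faced 18 of the 55 member promoters (32.7%), against 10.4% of protein-coding promoters. By the starts that RefSeq lists first, the distance was 44 bases for Mrpl27 and Eme1 and 72 bases for Mrps18c and Helq. Mrps27 faced Ptcd2, which encodes a mitochondrial RNA-binding protein of the pentatricopeptide family, at 91 bases. In 1 case both genes were members, since Mrpl46 and Mrps11 faced each other at 234 bases. Mrpl47 faced Ndufb5, a subunit of respiratory complex I, at 244 bases, and Mrpl32 faced the proteasome gene Psma2 at 210 bases.

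A gene was called detected on an array where at least 1 of its probes was flagged by the scanner software as well above local background. Mitochondrial ribosomal protein genes were detected almost without exception: 67 of 67 on replicates 1, 2 and 4, and 66 of 67 on replicate 3. Over all named genes the share detected was 52.3%, 91.6%, 75.5% and 46.3% for replicates 1 to 4. On all 4 arrays, 66 of 67 members were detected, against 42.5% of all named genes. On replicates 1 and 4 together, the count was 67 of 67, against 46.0%. By symbol, the large subunit contributed 40 of 41 and the small subunit 26 of 26 on all 4 arrays.

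Replicates 2 and 3 stood apart in the median processed signal of gene spots, which was 13.5, 542, 133 and 7.37 intensity units on replicates 1 to 4. The same arrays stood apart in the dimmest probe for the spike-in control RNA, which is added to every sample and does not come from the cells. The dimmest spike-in probe averaged 1.94, 9.07, 6.77 and 1.97 log2 units on replicates 1 to 4, and 0, 35, 34 and 0 of its 35 spots were flagged. A second threshold asked that a gene exceed that probe by 3 SD of its spots on the same array. It was looser than the flag on replicates 1 and 4, where 8646 and 7652 named genes were flagged and 9986 and 8843 passed. On replicates 2 and 3 it was stricter, with 15146 and 12478 flagged and 3778 and 3370 passing. On replicates 1 and 4 all 67 members passed the threshold, and 41 passed on replicate 2 and 49 on replicate 3. Of the 16526 named genes, 9986, 3778, 3370 and 8843 passed on replicates 1 to 4. On all 4 arrays 40 of 67 passed, against 15.4% of all named genes. By the chosen probe alone, the count was 39, since Mrps27 passed on replicate 2 through its other probe only. The small subunit had 16 of 26 and the large subunit 24 of 41. Mrpl27, Mrpl12, Mrps12 and Mrps16 were among those that passed on all arrays, and Mrps22, Mrps2, Mrps5 and Mrpl3 passed on replicates 1 and 4 only.

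**Figure D2:**
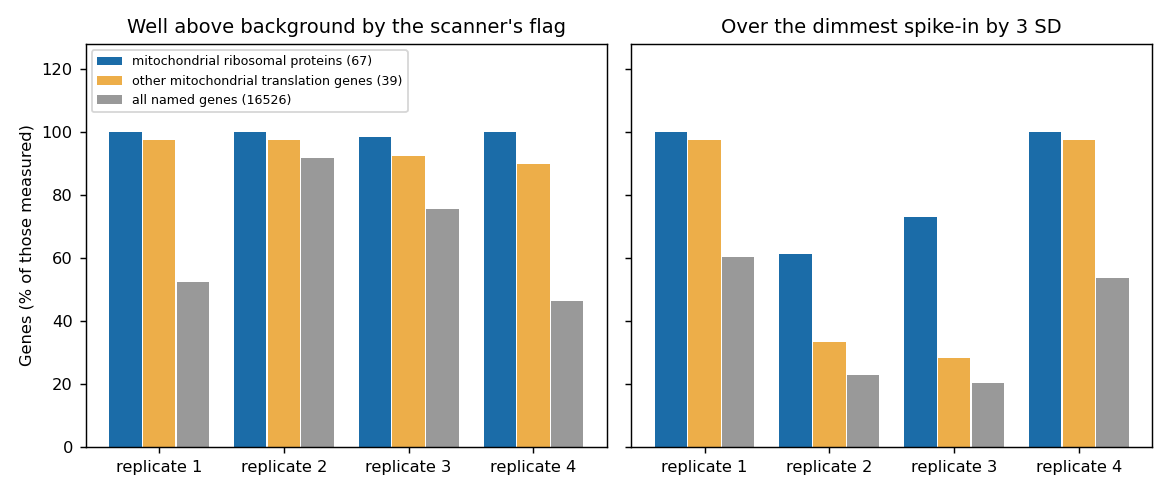
Percent of genes detected on each replicate array (vertical axis) by the scanner flag at left and by the threshold of 3 SD over the dimmest spike-in at right. Bars stand for 67 mitochondrial ribosomal protein genes, 39 other genes of mitochondrial translation and all 16526 named genes. By the flag the first group had 66 or 67 genes on every array, and by the threshold it had 41 on replicate 2 and 49 on replicate 3. Of all named genes, 3778 and 3370 passed the threshold on replicates 2 and 3.

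The gene not detected on every array was Mrpl50, a large subunit protein found only in mitochondria. Its signal was 149, 154, 43.2 and 126 intensity units on replicates 1 to 4, and the spot on replicate 3 was not flagged. Relative to each array's 75th percentile, the scale described below, these are log2 levels of -3.48, -3.44, -4.22 and -2.73, with replicate 3 the lowest and replicate 4 the highest. Mrpl50 passed the spike-in threshold on replicates 1 and 4 only.

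Other genes of mitochondrial translation were listed by name, 43 in all, of which 39 were measured. They were detected on all 4 arrays in 33 of 39 cases, and on replicates 1 and 4 in 35, against 42.5% and 46.0% of all named genes. Ribosomal proteins with other symbols (Dap3, Ptcd3, Chchd1, Aurkaip1, Gadd45gip1) were detected on all arrays in 5 of 5 cases. Initiation, elongation, release and recycling factors were detected in 10 of 10. Proteins of assembly and ribosomal RNA modification were detected in 15 of 20, with Mrm1, Mrm2, Noa1, Ybey and Mettl15 as the exceptions. Mrm1 and Mrm2 methylate mitochondrial ribosomal RNA, and Ybey is an endoribonuclease. In the group for messenger handling and membrane insertion, 3 of 4 were detected and Slirp, which stabilises mitochondrial messengers together with Lrpprc, was not. The threshold of 3 SD over the dimmest spike-in was passed on all arrays by 9 of the 39, against 15.4% of all named genes. By group, in the order above, the counts were 3 of 5, 2 of 10, 3 of 20 and 1 of 4. Of the cytosolic ribosomal protein genes, 77 of 77 were detected on all arrays and 76 passed the spike-in threshold.

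Levels below are log2 processed signals minus the 75th percentile of the array, taken over probes detected on all arrays, so that a level of 0 is the brightness of that percentile. Levels of different probes depend on the probe and are not ranked against each other as amounts of RNA. Where a gene had several probes, the probe of highest mean signal was used. Which array was lowest or highest for a gene depended on the scaling, and the order given below holds for this one. On it replicate 2 was the lowest array for 38 of 66 members, against 62 with the percentile over all probes, where replicate 3 was the lowest for the other 4. Scaled on the 3 brightest spike-in probes, the lowest array was replicate 3 for 50 members, Mrpl12, Mrpl41 and Mrpl44 among them, and replicate 2 for 0.

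Among large subunit proteins, the stalk that recruits translation factors is built on Mrpl10 and Mrpl12. Mrpl12 was read by 10 spots of 1 probe, with median signals of 13500, 8560, 6690 and 7040 intensity units on replicates 1 to 4. Its level was 3.03, 2.36, 3.01 and 3.04 on replicates 1 to 4 (2.86 ± 0.33, SD, n = 4). Replicate 2 was the lowest array and the other 3 lay within a narrow band, although the SD over its spots within an array was 0.04 to 0.14. Mrpl10 had levels of 1.32, 0.91, 1.61 and 1.61 (1.36 ± 0.33). Replicate 2 was again the lowest.

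Proteins around the peptidyl transferase centre and the exit of the peptide tunnel followed. Mrpl3, a counterpart of bacterial L3, had levels of -2.17, -1.65, -1.90 and -2.16 (-1.97 ± 0.25), with replicate 2 the highest. Mrpl16 had levels of -2.21, -0.68, -1.62 and -2.31 (-1.70 ± 0.75). Replicates 1 and 4 were close and replicates 2 and 3 were above them. Mrpl27 had levels of 2.16, 1.42, 2.12 and 2.16 (1.97 ± 0.36), and Mrpl23, at the tunnel exit, 2.12, 1.42, 2.26 and 2.35 (2.04 ± 0.42). Both were lowest on replicate 2. Mrpl45, which anchors the ribosome at the inner membrane, had levels of 1.73, 1.06, 1.72 and 1.95 (1.62 ± 0.39).

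Mrpl13, a counterpart of bacterial L13, was among the members of least spread, with levels of 0.86, 0.96, 0.91 and 1.0 (0.93 ± 0.06). Mrpl1, of the L1 stalk beside the exit site for transfer RNA, had levels of -0.99, -0.98, -0.92 and -1.06 (-0.99 ± 0.06). No array stood apart for these genes. Mrpl41, found only in mitochondria, had levels of 1.59, 0.96, 1.33 and 1.61 (1.37 ± 0.30). Mrpl44, which carries a ribonuclease III-like fold, had levels of 0.25, -0.58, -0.05 and -0.03 (-0.10 ± 0.35). Mrpl58, a peptidyl-tRNA hydrolase built into the large subunit, had levels of 2.15, 1.67, 2.04 and 2.17 (2.01 ± 0.23). In each of these last 3, replicate 2 was the lowest array.

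The small subunit was described by position and role. Mrps12, of the decoding centre, had levels of 1.17, 0.47, 1.04 and 0.90 (0.89 ± 0.31). Mrps7, of the head near the messenger, had levels of 0.19, 0.38, -0.21 and -0.47 (-0.03 ± 0.38). Replicates 3 and 4 were low for Mrps7, while replicate 2 was the lowest for Mrps12. Mrps16, a counterpart of bacterial S16 whose mutation in humans causes a respiratory chain disorder, had levels of 1.78, 1.17, 1.75 and 1.89 (1.65 ± 0.32). Mrps9, a counterpart of bacterial S9, had levels of 0.00, 0.16, -0.16 and -0.15 (-0.03 ± 0.15).

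Mrps2 and Mrps5, counterparts of bacterial S2 and S5, had lower levels on replicates 1 and 4 than on replicates 2 and 3 in this scaling, and the opposite order with the percentile over all probes. Mrps2 had levels of -3.63, -1.47, -2.20 and -3.80 (-2.78 ± 1.13), and Mrps5 had -2.76, -1.62, -1.56 and -2.71 (-2.16 ± 0.66). Mrps22 and Mrps27, found only in mitochondria, were likewise lower on replicates 1 and 4. Mrps22 had levels of -3.71, -2.02, -2.51 and -3.79 (-3.01 ± 0.88). Mrps27, a pentatricopeptide protein, had levels of -2.60, -0.81, -1.08 and -2.87 (-1.84 ± 1.04). Mrps14, a counterpart of bacterial S14, had levels of -4.55, -2.36, -2.91 and -4.37 (-3.55 ± 1.08), again with replicates 1 and 4 below the others. With the percentile over all probes, replicates 2 and 3 lay below replicates 1 and 4 in all 5 of these genes, as they did in 66 of 66 members, and Mrps2 had levels of 0.60, -0.50, -0.32 and 0.41. The chosen probe of none of the 5 passed the spike-in threshold on all 4 arrays.

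The 3 genes related to bacterial S18 differed in their pattern over arrays in this scaling. Mrps18a, whose human protein lies in the large subunit despite its symbol, had levels of 1.35, 0.81, 1.58 and 1.57 (1.33 ± 0.36), lowest on replicate 2. Mrps18b had levels of -1.87, -0.85, -0.80 and -1.66 (-1.29 ± 0.55), highest on replicates 2 and 3. Mrps18c, the counterpart that takes the bacterial position, had levels of 0.68, 0.68, 0.67 and 0.58 (0.65 ± 0.05), the smallest SD of the 66 members detected on all arrays by the chosen probe. Its lowest array was replicate 4. By mean level Mrps18a, Mrps18b and Mrps18c fell among the brightest, dimmest and middle 22 members. With the percentile over all probes, replicate 2 was the lowest array and replicate 3 the next in each of the 3 genes.

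**Figure D3:**
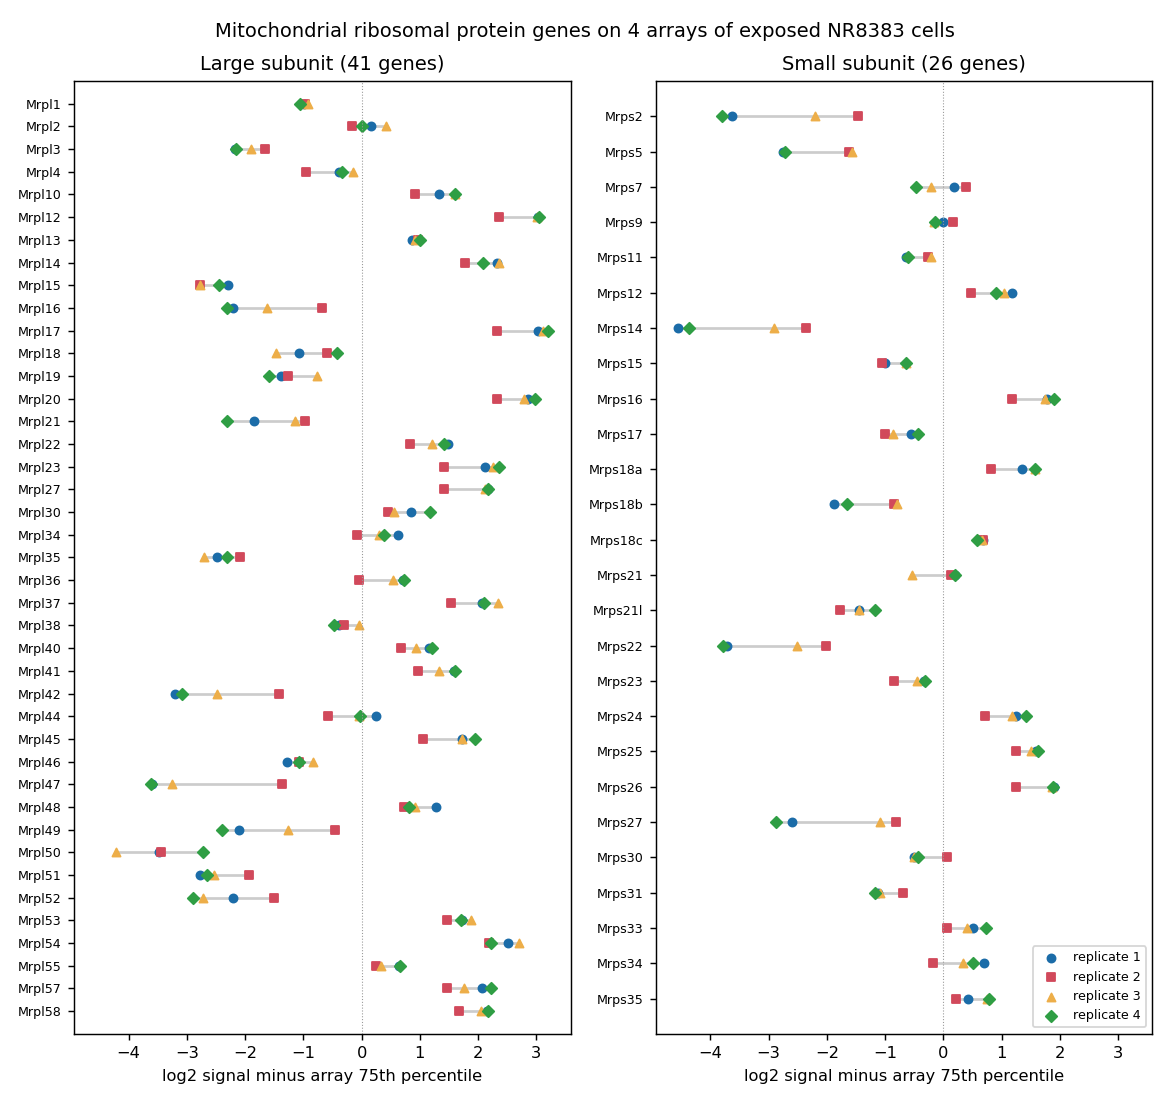
Level of each of the 67 members on the 4 replicate arrays, in log2 units relative to the array's 75th percentile (horizontal axis), with the large subunit at left and the small subunit at right. Grey bars span the lowest and highest array. The red squares of replicate 2 are leftmost in all 22 brightest members, such as Mrpl12, and rightmost in 14 of the 22 dimmest, such as Mrps2, while in others, such as Mrpl15, they are leftmost.

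Probes of the same gene did not always give the same call. Of 13 members with several probes (30 probes), 7 had every probe in the same state on every array. In Mrpl15, Mrpl30, Mrpl47, Mrps21 and Mrps35 a probe was not detected on replicate 1 or replicate 4 while another was. Mrpl30 is a large subunit counterpart of bacterial L30 and had the most probes, 5. The brightest Mrpl30 probe read 3010, 2300, 1190 and 1890 intensity units on replicates 1 to 4, and 2 of its other probes read 3.4 and 3.59 on replicate 1. Those same 2 probes read 584 and 838 on replicate 2 and were flagged there and on replicate 3. The 2 dark Mrpl30 probes were thus bright only on the arrays whose dimmest spike-in was bright as well, and the part of that signal in the detection was not tested. Mrpl30 has 9 pseudogenes in RefSeq, and whether its probes also read their transcripts was not tested, since probe sequences were not used here. In all, 20 members have at least 1 named pseudogene.

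For Mrps35, of the small subunit, 1 probe read 2240, 1950, 1360 and 1440 intensity units and the other 6.41, 24.0, 13.0 and 3.29, flagged on no array. For Mrpl15, of the large subunit, the chosen probe read 341, 243, 118 and 154, and the other was flagged on no array. The chosen Mrpl47 probe, for a counterpart of bacterial L29, read 139, 652, 84.9 and 68.1, and its second probe was flagged on replicate 2 alone. Mrps21, of the small subunit, had a bright probe at 1920, 1830, 556 and 960 and a dim one flagged on replicates 1 and 2. In Mrpl40, of the large subunit, 1 of 3 probes was not flagged on replicate 3. Counted by probe, 76 of 84 member probes with a value on every array were detected on all 4 arrays, against 8388 of 21023 named probes.

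**Figure D4:**
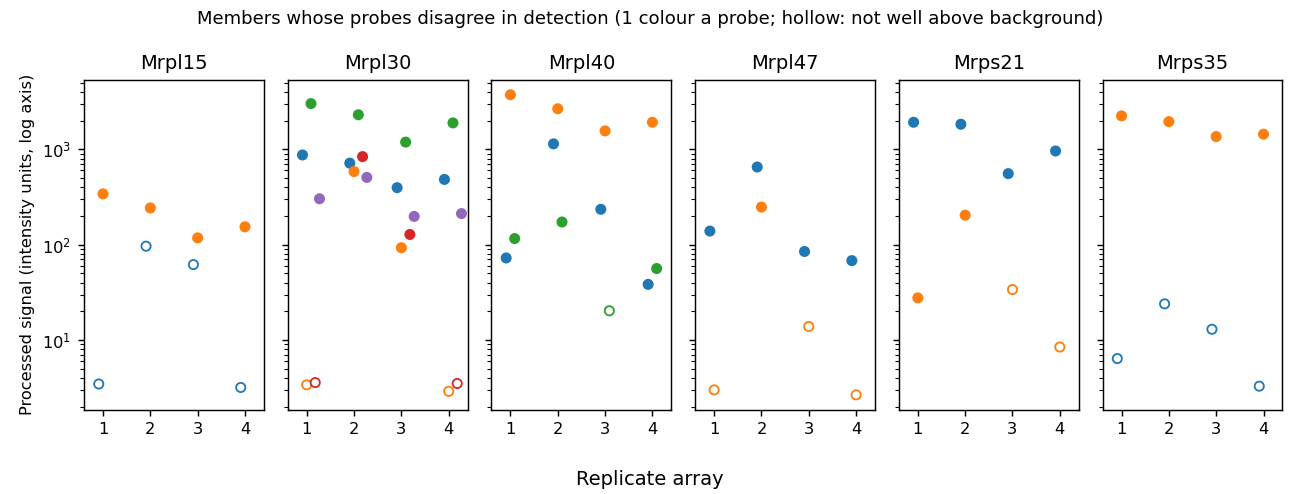
Processed signal, in intensity units on a log axis, of every probe of the 6 members whose probes disagreed in detection, by replicate array. Each colour is a probe and a hollow point was not well above background. In Mrpl30 the orange and red probes lie near 3 units on replicates 1 and 4 and above 90 on replicates 2 and 3.

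Spread between arrays was computed for 66 members whose chosen probe was detected on all 4 arrays. Their median SD was 0.31 log2 units (0.05 to 1.13), against 0.43 for all 6923 genes selected in the same way. An SD over 1 was found for 4 of 66 members (Mrps2, Mrps14, Mrpl47 and Mrps27), against 1499 of 6923 genes. The median was 0.33 in the large and 0.30 in the small subunit, and 0.35 in the cytosolic ribosomal proteins. These sets were not matched for brightness. The 4 members were among the 22 dimmest, in whose range of level 3857 of the 6923 genes lay. From dim to bright, the median SD was 0.58, 0.27 and 0.31 in members and 0.62, 0.30 and 0.35 in all genes of like level. The median SD of members depended on how the arrays were scaled, and was 1.80 with the percentile over all probes and 0.50 on the 3 brightest spike-in probes. Without replicate 2 it was 0.17. With replicates 1 and 4 alone, in the main scaling, it was 0.11 for members and 0.14 for all genes.

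Replicates 1 and 4 were close in this scaling. The difference, replicate 4 minus replicate 1, had a median of 0.02 over members (-0.70 to 0.65) and 0.03 over all genes. It was positive in 38 of 66 members and in 3790 of all 6923 genes. It lay within 0.5 log2 units for 63 of 66 members (95.5%), against 86.6% of all genes. Scaled on the 3 brightest spike-in probes, the median was -0.53 over members and -0.51 over all genes, and 25 of 66 members lay within 0.5. The members of largest difference were Mrpl52 (-0.70), Mrps7 (-0.66), Mrpl18 (0.65) and Mrpl21 (-0.46), the last with levels of -1.84, -0.98, -1.15 and -2.31 on replicates 1 to 4. Mrpl52 had levels of -2.20, -1.50, -2.73 and -2.90, and Mrpl18, a counterpart of bacterial L18, -1.07, -0.59, -1.47 and -0.42. Mrpl21, Mrpl52 and Mrpl18 encode large subunit proteins.

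Replicate 2 differed from replicate 1 in a way that went with brightness. Members were split by mean level into 3 groups of 22. In the 22 dimmest, the difference of replicate 2 minus replicate 1 had a median of 0.85 and was positive in 20. Over all genes of the same range of level the median was 1.06, with 3121 of 3857 positive. The sign of the member median turned with other scalings, to -2.41 with the percentile over all probes and to -2.17 after quantile normalization. In the 22 of middle level the median was -0.36 with 6 positive, against -0.32 for all genes, with 430 of 1591 positive. In the 22 brightest it was -0.55 with 0 positive, against -0.62 for all genes, with 21 of 740 positive. The median SD over 4 arrays was 0.58, 0.27 and 0.31 in the same order, and 0.62, 0.30 and 0.35 over all genes of the same ranges. The dimmest minus brightest gap was 1.39, which no change of centring can alter, and it turned to -2.10 after quantile normalization. Members thus followed the other genes of like brightness in these values, beside a dimmest spike-in and a median gene spot that were bright on replicates 2 and 3. The part of that difference between arrays in these results was not tested.

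**Figure D5:**
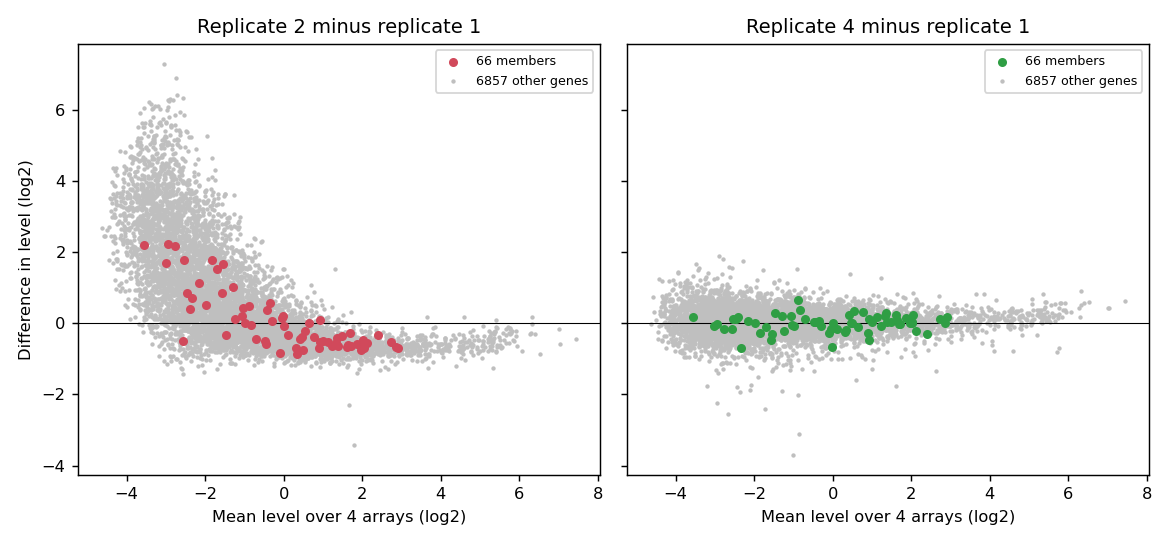
Difference in level between replicate arrays, in log2 units (vertical axis), against mean level over the 4 arrays (horizontal axis), for 66 members in colour and all other tested genes in grey. Replicate 2 minus replicate 1, at left, runs from above 0 in dim members to below 0 in bright ones, and replicate 4 minus replicate 1, at right, stays between -0.70 and 0.65 in members.

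Levels of the 66 members on 2 arrays were also set side by side as a description across genes, which share a slide design and are not independent. Each gene was read by the same probe on every array, so r also holds differences in brightness between probes. Pearson's r was 0.993 for replicates 1 and 4, 0.937 for replicates 1 and 2 and 0.969 for replicates 1 and 3. The lowest of the 6 pairs was 0.927, for replicates 2 and 4. Over all 6923 genes the same pairs gave 0.989, 0.794, 0.906 and 0.796. The 2 sets were not matched for brightness, since 3857 of the 6923 genes lay in the range of the 22 dimmest of 66 members.

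Whether any member varied more between the 4 replicates than genes of like signal was asked with limma, which set the variance of every gene against that usual at its level (one-sided F test), over all 6923 genes. The test called 0% of all genes at an adjusted p of 0.05, and 0 of 66 members. At an unadjusted p under 0.05 it named 313 of all genes and 0 members, and with a robust prior 0 genes were called and 273 had an unadjusted p under 0.05. The smallest unadjusted p among members was 0.0959, for Mrps27, and its adjusted p in limma was 0.943. Over the alternatives run, the smallest adjusted p of any member lay between 0.865 and 0.984 in limma. A p that misses the threshold does not show that members vary alike.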

How the data were processed

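RNA of ZnFe2O4-exposed NR8383 cells was measured on 4 Agilent 1-colour (Cy3) arrays, 1 per biological replicate. The authors' scans were turned into intensity values with Agilent Feature Extraction 11.0.1.1, per the file headers, and the processed signal is background-subtracted; no scaling between arrays is recorded there. The deposited value table equals the median spot intensity on all 62976 spots, on a linear scale with no centring, and was not used further. The depth of an array has no count, and the number of arrays limits the precision.

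Control spots and 832, 946, 1109 and 868 outlier-flagged gene spots on replicates 1 to 4 were left out. Spots of a probe were averaged as log2, and the 75th percentile over probes well above background on all arrays was subtracted, because under 50% of probes were bright on all of them. A probe counted as detected where at least 0.5 of its spots were flagged. Accessions without versions were named through the RefSeq table of GRCr8, which named 21109 of 45598 probes; no coordinates of the older array design were used. Promoters came from RefSeq on the same assembly. Spread was tested with limma 3.58.1 in R 4.3.3 (one-sided F test against a trended prior, Benjamini-Hochberg adjustment, 0.05). The procedure was tested on simulated data with independent normal noise, without shifts shared by the genes of an array. Its p-values compare the spread of a gene between these samples with the spread usual at its level.

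The text names members not detected on every array, those whose probes disagreed on replicates 1 and 4, members listed for their role, the 4 of largest and the 4 of smallest SD, and the 4 of largest difference between replicates 4 and 1; Mrpl32 and Mrpl40, and the members given for a promoter or a spike-in result outside that rule, were named after their values were seen. Role-list members without a value were not analysed here. Members and lists were chosen with earlier results of these data known. Alternatives were the other detection flag, a spike-in threshold, other scalings, normexp, other probe rules, a robust prior and leaving out replicates.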

Additional observations from a re-analysis of the deposited data

Results flagged for a closer look

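For 5 of the 33 members named in the report, 1 array lay far from the other 3, by the gap to the nearest array divided by the whole range over the 4 arrays. Chance gives such a gap in about 1 in 20 groups, and among all 6923 genes 5.59% had one. Mrpl12, of the factor-binding stalk, had its lowest level on replicate 2, at 2.36, with a gap over range of 0.95. Mrpl27, near the catalytic centre, was lowest on replicate 2 as well, at 1.42, with a gap over range of 0.95. Mrpl47 was highest on replicate 2, at -1.36, with a value of 0.84. Mrps21 was lowest on replicate 3, at -0.54, with a value of 0.90. Mrps18c was lowest on replicate 4, at 0.58, with a value of 0.83, although its whole range was 0.10 log2 units. With the percentile over all probes, with spike-in scaling and with quantile normalization 0 of these 5 genes had such a gap, and with normexp 2 did. Of the 66 members with a spread value, 7 had such a gap in the main scaling. The count was 0 with the percentile over all probes, 1 with spike-in scaling, 10 with quantile normalization and 6 with normexp. Of all 6923 genes, 0.751%, 4.87%, 17.1% and 5.78% had one, in the same order.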

How the results depend on the processing

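Detection on all 4 arrays was 66 members, 67 by the software's other flag of a significant positive signal, 66 by the brightest probe alone, 60 where every probe had to be flagged and 66 with outlier spots kept. It fell to 40 with the threshold of 3 SD over the dimmest spike-in. Leaving out each replicate gave 66 to 67. The median SD of 0.31 became 1.80 with the 75th percentile over all probes and 0.50 with spike-in scaling, and leaving out each replicate gave 0.17 to 0.35. The median of replicate 4 minus replicate 1, 0.02, became -0.53 when arrays were scaled on the 3 brightest spike-in probes, which moved all genes by a like amount (-0.51). For the 22 dimmest members, replicate 2 minus replicate 1 was 0.85 and reversed to -2.41 with the percentile over all probes and to -2.17 with quantile normalization, where all 6923 genes had medians of -3.00 and -1.30. The gap between the dimmest and brightest members, 1.39, reversed to -2.10 with quantile normalization. The causes of these changes were not tested. The spread test called 0 members under every alternative run. Single levels moved by a median of 2.82 with the percentile over all probes and -2.54 with spike-in scaling, so a level's sign has no meaning of its own. No paired analysis was possible because all arrays belong to 1 group. Defining members by a gene name column was not run, since accessions were used, and normexp used the median spot signal. The alternatives for the 3 groups by brightness were chosen after seeing the data.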
